A study of Mus musculus with 4 samples.

Results

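The genes described here are the ligands and receptors of the classical axon guidance families, taken by their symbols: semaphorins, plexins, neuropilins, Eph receptors, ephrins, netrins, Dcc and Unc5 receptors, Slits and Robos. The array held 73 rows for 68 such genes, among 21789 rows with exactly 1 gene symbol for 19938 genes, and each gene was represented by its row with the highest mean over the arrays. Of 4 Affymetrix Mouse Gene 1.0 ST arrays of RNA labelled as prefrontal cortex of ICR mice, 2 were titled ketamine and 2 saline. According to the methods, treatment began at 1 month of age, and the mice received ketamine at 30 mg/kg by daily intraperitoneal injection, or the same volume of normal saline, for 3 months. The labels contradict themselves: the source field gives each array the opposite treatment to its title, both fields put the same arrays together, and the labels give female mice where the methods give males. The groups are named by title (ketamine-titled and saline-titled), and by the source field every direction below would turn round. A two-sided exact permutation test of 2 arrays against 2 cannot go below 0.333, so single genes were called by limma at an adjusted p under 0.05. The arrays stand for 2 mice of each group, taken at random according to the methods. Each p-value rests on the spread among those animals alone, which limma moderates for each gene toward that of all tested rows.

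In the developing nervous system, guidance ligands are secreted or held on cell surfaces, and receptors on the growth cone turn them into attraction or repulsion through the actin and microtubule skeleton. Semaphorins signal through plexins, with neuropilins as co-receptors for most secreted class 3 members. Ephrins bind Eph receptor tyrosine kinases at cell contacts, netrins bind Dcc and the Unc5 receptors, and Slits bind Robos. Many of these genes stay active in the adult brain, where they take part in synapse structure and plasticity and in blood vessels, and where forebrain and cerebellum use different members.

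Guidance genes were lower on the ketamine-titled arrays more often than array rows in general. Of the 68 genes, 31 were lower (45.6%), 14 were higher (20.6%) and 23 did not pass, against 9.71% of all tested rows lower, 23.4% higher and 33.2% called either way. The largest falls were in Epha4, an ephrin receptor of cortical and motor neurons (log2 difference -2.0), Ephb6, a kinase-dead Eph receptor (-1.94), Slit1, a secreted repellent (-1.91), and Dcc, the attractive netrin receptor (-1.83). The largest rises were in Epha8 (1.24), Sema4c, a transmembrane semaphorin (1.08), Ntn4, a netrin related to laminins (1.07), Unc5b, a repulsive netrin receptor (1.05), and Plxnb2, a receptor of class 4 semaphorins (1.02). The median log2 difference over the 68 genes was -0.28, beside a median of 0.13 over all tested rows. The 2 groups did not overlap for 64 of the 68 genes (94.1%), against 69.9% of all tested rows. With ketamine-titled array 1 or 2 left out, limma passed no guidance gene and no other row. The median log2 difference over the guidance genes was then -0.26 without array 1 and -0.27 without array 2, beside 0.13 over all rows.

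Other scalings of the arrays gave more lower and fewer higher guidance genes. After quantile normalization, which brought the median of all rows to 0.01, 36 guidance genes were lower and 12 higher (52.9% and 17.6%), against 14.1% and 15.2% of all rows. After centring each array on its median, 37 were lower and 12 higher, against 14.7% and 14.7% of all rows. The share of higher genes among all called rows was 51.9% and 50% under these settings and 70.7% with the deposited values. When rows dimmer than the median row were left out, 29 of 53 guidance genes were lower (54.7%) and 13 higher (24.5%), against 14.2% and 34.8% of the rows kept.

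**Figure D1:**
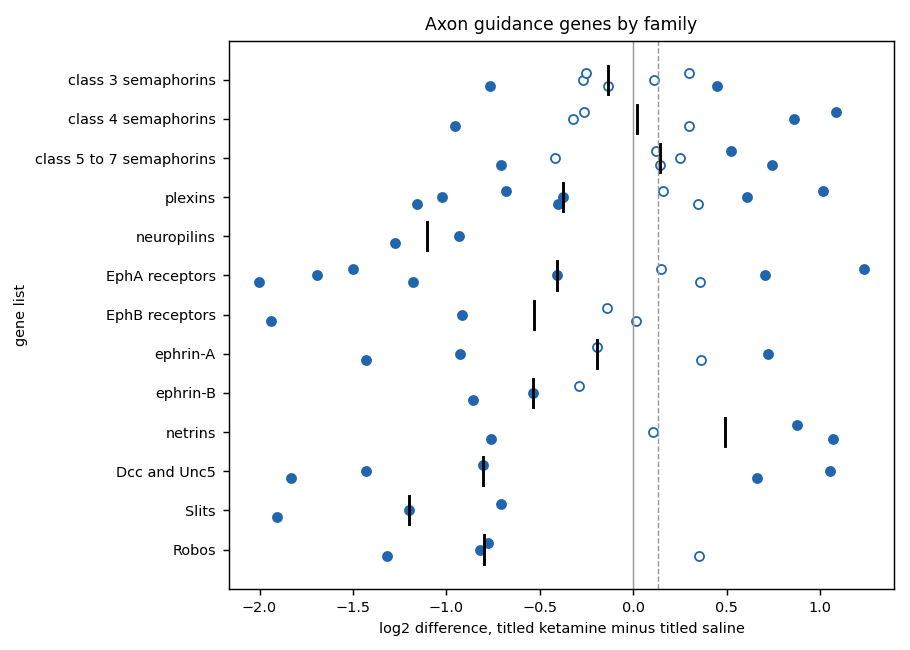
Log2 differences, ketamine-titled minus saline-titled arrays (x axis), of the 68 guidance genes by family (y axis). Circles are genes, filled at an adjusted p under 0.05 (limma), the black bar is the family median, and the dashed line marks the median of all tested rows at 0.13. All 3 Slits and both neuropilins lie below 0, while the semaphorin families lie on both sides of it.

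Markers of brain regions differed between the same arrays. All 8 measured markers of cerebellar granule cells were higher on the ketamine-titled arrays, and their summed level (on the linear scale) was 11026 and 10380 there, against 944 and 684 on the saline-titled arrays. Of 6 measured markers of Purkinje cells 5 were higher and 1, Foxp2, was lower, with sums of 6992 and 6328 against 1106 and 842. Some of these markers differed between saline-titled arrays 1 and 2 on the log2 scale. Gabra6 read 6.73 and 3.28 there, Cbln3 5.75 and 4.52, Car8 7.81 and 6.37 and Ppp1r17 4.94 and 3.92. Others differed little, among them Etv1 (8.21 and 8.15) and Pcp2 (5.06 and 4.90). Of 6 markers of cortical projection neurons 5 were lower and 1 did not pass, with sums of 426 and 413 on the ketamine-titled arrays against 2128 and 2185 on the saline-titled arrays. Tbr1 and Neurod6, which define such neurons, lay on both ketamine-titled arrays below the 95th percentile of the olfactory receptor rows (4.56 and 4.46), a level taken here as the dim end of the array. The other 4 cortical markers lay above that level on both arrays: Fezf2 (difference -2.42), Mef2c (-2.71) and Rorb (-1.05) were lower, and Emx1 did not pass (-0.36, adjusted p = 0.127). All 6 striatal markers were lower, with sums of 2127 and 1974 against 4434 and 4423, and so were all 8 microglial markers, with 711 and 823 against 1376 and 1360. Of 8 markers of choroid plexus 7 were higher, with sums of 4591 and 6021 against 3371 and 3450, and of 8 astrocyte markers 4 were higher and 1 lower. Endothelial markers gave 1 higher and 1 lower of 8, oligodendrocyte precursor markers 2 lower of 6 and meningeal markers 2 higher of 6. None of 7 oligodendrocyte markers passed, and none had an unadjusted p under 0.05 (limma). Of all tested rows, 23.4% were higher and 9.71% lower. The part of these regional markers in each guidance result was not tested, treatment and region cannot be told apart on these arrays, and in bulk tissue fewer cells of a type cannot be told apart from less RNA per cell.

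The promoters of 4 guidance genes are shown because Epha8 and Epha4 are receptors of 1 family that differed in opposite directions, and Slit2 and Robo1 are a ligand and a receptor that were both lower. Each runs from 250 bases before to 50 bases after the start in the RefSeq table of GRCm38.p6, in the orientation that table gives, and capitals mark GC boxes (GGGCGG on either strand), the binding motif of Sp family factors. Epha8 lies at chr4:136956767-136957066 (minus strand), Epha4 at chr1:77515039-77515338 (minus strand), Slit2 at chr5:47982905-47983204 (plus strand) and Robo1 at chr16:72662899-72663198 (plus strand).
Epha8: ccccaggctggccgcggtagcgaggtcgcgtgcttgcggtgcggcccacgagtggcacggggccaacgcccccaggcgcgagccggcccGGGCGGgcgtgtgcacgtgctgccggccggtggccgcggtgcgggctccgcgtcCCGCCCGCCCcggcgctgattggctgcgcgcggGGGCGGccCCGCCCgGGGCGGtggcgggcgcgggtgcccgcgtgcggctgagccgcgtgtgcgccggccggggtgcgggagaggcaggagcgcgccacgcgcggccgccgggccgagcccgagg
Epha4: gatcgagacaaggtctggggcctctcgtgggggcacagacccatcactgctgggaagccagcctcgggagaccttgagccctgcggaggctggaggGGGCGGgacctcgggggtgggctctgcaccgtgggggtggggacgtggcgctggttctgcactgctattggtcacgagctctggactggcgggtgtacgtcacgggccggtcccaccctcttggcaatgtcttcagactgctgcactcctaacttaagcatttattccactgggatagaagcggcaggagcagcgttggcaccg
Slit2: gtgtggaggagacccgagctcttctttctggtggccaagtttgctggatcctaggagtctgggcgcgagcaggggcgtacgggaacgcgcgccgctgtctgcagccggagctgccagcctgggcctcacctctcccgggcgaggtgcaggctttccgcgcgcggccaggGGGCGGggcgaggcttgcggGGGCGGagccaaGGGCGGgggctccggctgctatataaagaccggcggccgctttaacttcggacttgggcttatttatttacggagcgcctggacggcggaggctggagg
Robo1: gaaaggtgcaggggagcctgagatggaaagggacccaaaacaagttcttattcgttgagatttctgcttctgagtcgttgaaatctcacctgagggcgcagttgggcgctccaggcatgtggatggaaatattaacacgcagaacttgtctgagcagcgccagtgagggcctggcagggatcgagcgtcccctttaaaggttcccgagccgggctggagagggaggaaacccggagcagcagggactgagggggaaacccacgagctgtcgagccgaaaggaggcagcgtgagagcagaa
Counting overlapping matches, Epha8 held 6 GC boxes, Slit2 held 3, Epha4 held 1 and Robo1 held 0, and the GC content was 84.3%, 68.0%, 64.0% and 57.0% in that order. Promoters were found for 58 of the 68 genes, 74 windows in all. A GC box was present in 71.6% of these windows, in 70.6% of the 17 windows of genes called higher and in 81.8% of the 33 windows of genes called lower, against 49.2% of the 19177 windows of all tested genes. A TATA box (TATAAA on either strand) was present in 2.7% of the guidance windows and in 11.5% of those of all tested genes. The matches describe letters only, and no binding was measured here.

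Eph receptors, the largest family of receptor tyrosine kinases, were mostly lower on the ketamine-titled arrays. Of 13 measured receptors, 7 were lower (53.8%), 2 higher (15.4%) and 4 did not pass (median log2 difference -0.41). Of all tested rows, 9.71% were lower and 23.4% higher. Epha4, which binds ephrins of both classes, read 7.51 and 7.35 on the ketamine-titled arrays and 9.51 and 9.36 on the saline-titled arrays. The difference was -2.0 (standard error 0.12, adjusted p = 6.24e-05). On the linear scale the ketamine-titled level was 0.249 of the saline-titled level, and the arrays of 1 group differed by at most 0.17 on the log2 scale. Epha6 read 6.19 and 6.56, against 8.21 and 7.94 on the saline-titled arrays (difference -1.69, standard error 0.16, adjusted p = 0.000402). Epha5, a receptor of topographic maps and cortical circuits, read 6.48 and 6.89 against 8.24 and 8.12 (difference -1.50, standard error 0.15, adjusted p = 0.000563). For both genes the ketamine-titled arrays lay well below either saline-titled array. Epha7, known from cortical patterning, was lower by a difference of -1.18 (adjusted p = 0.0012), and Epha10, another receptor without kinase activity, by -0.41 (adjusted p = 0.0369). A second row for Epha10 gave 0.11 (adjusted p = 0.451), so that its call rests on the row used, and it was lost without saline-titled array 2.

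The EphA receptors that were higher were Epha8 and Epha3. Epha8, known from axons of the midbrain, read 6.26 and 6.33 on the ketamine-titled arrays, against 5.08 and 5.05 on the saline-titled arrays (difference 1.24, standard error 0.11, adjusted p = 0.000259). Epha3, which binds ephrin-A5 with high affinity, had a difference of 0.71 (adjusted p = 0.00415). Epha2, mainly an epithelial receptor, had 0.15 (adjusted p = 0.432) and overlapped between groups. Epha1 had 0.36 (adjusted p = 0.0644), with all 4 arrays below the olfactory receptor level, so that its size is not resolved.

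Among the EphB receptors, which bind mainly ephrin-B ligands, Ephb6 and Ephb3 were lower. Ephb6 read 6.18 and 6.14 on the ketamine-titled arrays, against 8.03 and 8.17 on the saline-titled arrays (difference -1.94, standard error 0.11, adjusted p = 5.16e-05). Ephb3, a receptor of commissural axons, read 5.21 and 5.50 against 6.24 and 6.31 (difference -0.92, standard error 0.13, adjusted p = 0.00224). Neither gene overlapped between the groups, and nor did 69.9% of all tested rows. Ephb1 read 6.89 and 6.99 against 6.96 and 6.89, and its values overlapped (difference 0.01, adjusted p = 0.938, 95% interval of limma -0.24 to 0.27). A second Ephb1 row was higher, at 4.90 and 4.76 against 4.10 and 4.36 (difference 0.60, adjusted p = 0.0122), so that the rows of this gene disagree. Both saline-titled values of that row lay below the olfactory receptor level, and its size is not resolved. Ephb4, best known from veins, read 5.51 and 5.31 against 5.62 and 5.49 and did not pass (difference -0.14, adjusted p = 0.402).

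Of the 8 ephrins, 4 were lower (50%), 1 was higher (12.5%) and 3 did not pass (median log2 difference -0.42). These shares stand beside 9.71% lower and 23.4% higher of all tested rows. Ephrin-A proteins are held in the membrane by a lipid anchor, and ephrin-B proteins cross it and can signal back into their own cell. Efna3 read 6.30 and 6.60 on the ketamine-titled arrays, against 7.76 and 8.0 on the saline-titled arrays (difference -1.43, standard error 0.14, adjusted p = 0.000531). Efna5, the ligand that forms gradients in the visual system and cortex, read 5.63 and 5.78 against 6.62 and 6.64 (difference -0.93, standard error 0.11, adjusted p = 0.00107). Efna1 differed the other way, at 5.76 and 5.48 against 4.93 and 4.87 (difference 0.72, standard error 0.13, adjusted p = 0.00568), a call lost without saline-titled array 2. Efna1, Efna3 and Efna4 follow each other on chromosome 3 with no other protein-coding gene between them in the RefSeq table. These neighbours gave a rise, a fall and no call, since Efna4 had a difference of -0.19 (adjusted p = 0.27). Efna2 had 0.37 (adjusted p = 0.0665) and passed as higher with either filter on dim rows (adjusted p = 0.0351 and 0.0472) and with trended moderation (0.0475).

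The ephrin-B genes all read lower on both ketamine-titled arrays than on either saline-titled array. Of all tested rows, 69.9% did not overlap between the groups, counting both directions. Efnb3, a repellent at the midline of the spinal cord, read 6.48 and 7.04, against 7.59 and 7.64 on the saline-titled arrays (difference -0.86, standard error 0.18, adjusted p = 0.0115). The ketamine-titled arrays differed from each other by 0.56 for this gene, the widest gap within a group among the 68 genes, and the call was lost with either saline-titled array left out. Efnb2, also a marker of arteries, read 6.70 and 6.80 against 7.30 and 7.28 (difference -0.54, standard error 0.11, adjusted p = 0.00877). Efnb1 read 6.24 and 6.18 against 6.32 and 6.68 and did not pass (difference -0.29, adjusted p = 0.157), though it passed as lower after median centring (adjusted p = 0.0468).

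**Figure D2:**
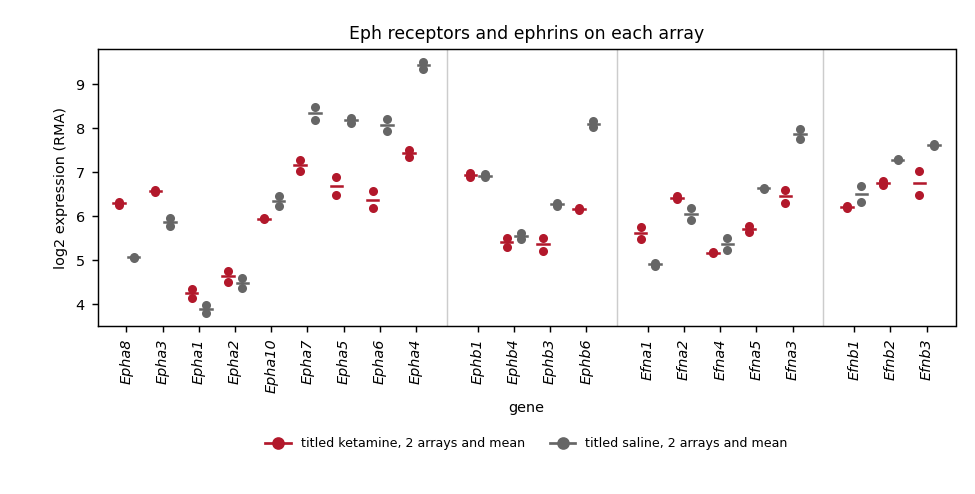
Log2 expression (y axis) of 13 Eph receptor and 8 ephrin genes (x axis) on each array, red for ketamine-titled and grey for saline-titled arrays. Each dot is 1 array and each bar the mean of a group, and genes are ordered by difference within each family. Epha4 and Ephb6 show the widest gaps, and Epha8 is the clearest receptor in the other direction.

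Netrins and their receptors were called in both directions, with 2 of 4 netrins higher and 1 lower, beside 23.4% and 9.71% of all tested rows. Ntn1, the classical netrin, read 6.78 and 6.79 on the ketamine-titled arrays, against 5.87 and 5.95 on the saline-titled arrays (difference 0.88, standard error 0.11, adjusted p = 0.00113). Ntn4, which acts mainly through basement membranes, read 7.04 and 6.82 against 5.86 and 5.87 (difference 1.07, standard error 0.12, adjusted p = 0.000797). Both netrins lay higher on each ketamine-titled array than on either saline-titled array, while 69.9% of all tested rows did not overlap in either direction. Ntn5 was lower, at 4.76 and 4.32 against 5.14 and 5.45 (difference -0.76, standard error 0.18, adjusted p = 0.0167). Its value on ketamine-titled array 2 lay below the olfactory receptor level, and its call was lost with either saline-titled array left out. Ntn3 read 5.65 and 5.49 against 5.46 and 5.47 and did not pass (difference 0.11, adjusted p = 0.503).

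All 5 measured genes of the Dcc and Unc5 group passed, 3 lower and 2 higher, beside 9.71% and 23.4% of all tested rows. Dcc read 5.43 and 5.32 on the ketamine-titled arrays, against 7.35 and 7.06 on the saline-titled arrays (difference -1.83, standard error 0.13, adjusted p = 0.000127). Unc5d, a receptor of migrating cortical neurons, read 6.13 and 6.27 against 7.66 and 7.59 (difference -1.43, standard error 0.11, adjusted p = 0.000175). A second Unc5d row was also lower, by a difference of -1.20. Unc5a was lower by -0.80 (adjusted p = 0.00231). Unc5b, which is also a receptor of blood vessels, read 7.0 and 7.16, against 5.91 and 6.16 on the saline-titled arrays (difference 1.05, standard error 0.13, adjusted p = 0.00124). Unc5c, whose mouse mutant is known for misplaced cerebellar cells, read 8.37 and 8.07 against 7.65 and 7.47 (difference 0.66, standard error 0.14, adjusted p = 0.0111), a call lost without saline-titled array 2. The 4 Unc5 receptors were thus lower for Unc5a and Unc5d and higher for Unc5b and Unc5c, directions that also held under both other scalings.

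Slits and Robos form a ligand and receptor system that repels axons from the midline, and only Robo4 among them did not pass as lower. The 3 Slits passed, with a median log2 difference of -1.20, and 3 of 4 Robos passed, with -0.80. Of all tested rows, 9.71% were lower. Slit1 read 5.23 and 5.60 on the ketamine-titled arrays, against 7.41 and 7.24 on the saline-titled arrays (difference -1.91, standard error 0.15, adjusted p = 0.000185). Slit2 read 6.11 and 6.50 against 7.52 and 7.50 (difference -1.20, standard error 0.15, adjusted p = 0.0012). Slit3 read 6.63 and 6.51 against 7.31 and 7.26 (difference -0.71, standard error 0.11, adjusted p = 0.00316). No Slit overlapped between groups, and nor did 69.9% of all tested rows.

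Robo2, a receptor of forebrain and retinal axons, read 7.28 and 7.36 on the ketamine-titled arrays, against 8.69 and 8.59 on the saline-titled arrays (difference -1.32, standard error 0.11, adjusted p = 0.000221). Robo1, its neighbour on chromosome 16, read 6.94 and 7.27 against 7.94 and 7.90 (difference -0.82, standard error 0.14, adjusted p = 0.0044). Robo3, the divergent receptor of commissural axons, read 4.16 and 4.06 against 4.77 and 5.0 (difference -0.78, standard error 0.12, adjusted p = 0.00362). Both ketamine-titled values of Robo3 lay below the olfactory receptor level, so that the size of this difference is not resolved. Robo4, the endothelial Robo and the neighbour of Robo3 on chromosome 9, read 5.09 and 5.1 against 4.65 and 4.84 and did not pass (difference 0.35, adjusted p = 0.0556), though it passed as higher among rows above the olfactory receptor level (adjusted p = 0.0385).

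**Figure D3:**
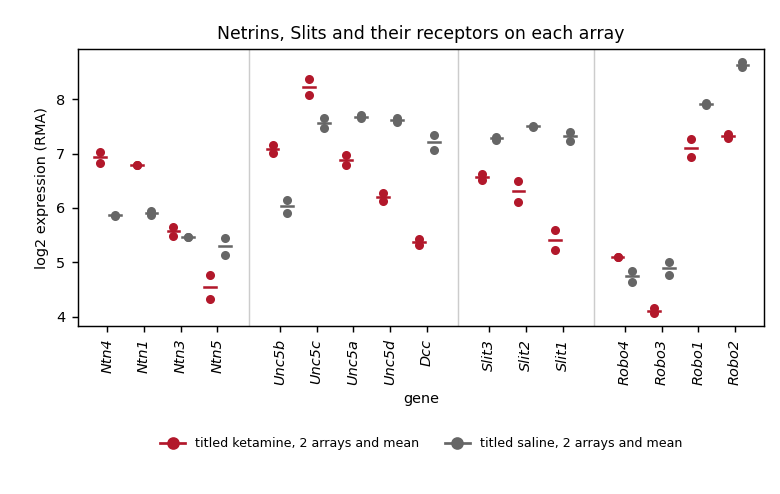
Log2 expression (y axis) of the netrins, Dcc and Unc5 receptors, Slits and Robos (x axis) on each array, red for ketamine-titled and grey for saline-titled arrays. Each dot is 1 array and each bar the mean of a group. Ntn1, Ntn4, Unc5b and Unc5c are higher on the ketamine-titled arrays, and Dcc, the 3 Slits, Robo1 and Robo2 are lower.

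Of 20 semaphorins, 5 were higher, 3 lower and 12 did not pass (40.0% called, beside 33.2% of all rows). Their balance turned with the scaling: after quantile normalization and after median centring alike, 3 were higher, 8 lower and 9 did not pass. The balance of all rows moved as well, from 23.4% higher and 9.71% lower to 15.2% and 14.1% after quantile normalization. After median centring it was 14.7% and 14.7%. The median log2 difference over the 20 genes was 0.12 with the deposited values and -0.03 and -0.02 under those scalings, and whether the family differs from the others was not tested. Class 3 semaphorins are secreted and mostly repel axons. Sema3e, which binds plexin D1 directly, read 6.62 and 6.40 on the ketamine-titled arrays, against 7.38 and 7.17 on the saline-titled arrays (difference -0.77, standard error 0.13, adjusted p = 0.0049). Sema3d read 5.82 and 5.64 against 5.28 and 5.27 (difference 0.45, standard error 0.11, adjusted p = 0.0221). The call on Sema3d was lost under both other scalings and with either saline-titled array left out. Sema3a, the prototype of growth cone collapse, read 7.42 and 7.42 against 7.77 and 7.61 and did not pass (difference -0.27, adjusted p = 0.106). It passed as lower after quantile normalization (difference -0.41, adjusted p = 0.0227) and after median centring (-0.40, adjusted p = 0.0317). Sema3c had -0.25 (adjusted p = 0.134) and passed as lower under the same scalings (adjusted p = 0.0342 and 0.0406). Sema3b, Sema3f and Sema3g lay between -0.14 and 0.30 and did not pass.

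Class 4 semaphorins are membrane proteins that signal mostly through B-type plexins. Sema4c read 7.63 and 7.46 on the ketamine-titled arrays, against 6.41 and 6.51 on the saline-titled arrays (difference 1.08, standard error 0.12, adjusted p = 0.0007). Sema4g was higher too, at 7.04 and 6.52 against 5.96 and 5.89 (difference 0.86, standard error 0.17, adjusted p = 0.00973). The arrays titled ketamine differed by 0.53 for Sema4g, and its call was lost with either saline-titled array left out. Sema4a was lower, at 6.27 and 6.56 against 7.32 and 7.42 (difference -0.96, standard error 0.13, adjusted p = 0.00198). Sema4f read 6.95 and 6.79 against 7.15 and 7.23 and did not pass (difference -0.32, adjusted p = 0.0639). It passed as lower after quantile normalization (adjusted p = 0.019), after median centring (0.0177), with either filter on dim rows (0.0305 and 0.0451) and with trended moderation (0.0403). Sema4b had -0.26 (adjusted p = 0.11) and passed as lower under both scalings (adjusted p = 0.027 and 0.0313). Sema4d, a ligand of plexin B1 made by oligodendrocytes, had 0.30 (adjusted p = 0.0671). It passed as higher with either filter on dim rows (adjusted p = 0.0301 and 0.0474). A second Sema4d row had 0.19 and did not pass (adjusted p = 0.209).

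Among the other semaphorins, Sema6d and Sema7a were higher and Sema6b was lower. Sema6d, a transmembrane semaphorin that signals through A-type plexins, read 8.89 and 8.85 on the ketamine-titled arrays, against 8.28 and 7.98 on the saline-titled arrays (difference 0.74, standard error 0.13, adjusted p = 0.00536). Sema7a, a lipid-anchored ligand of plexin C1 and integrins, read 9.61 and 9.28 against 8.94 and 8.90 (difference 0.52, standard error 0.14, adjusted p = 0.0237). The call on Sema7a was lost under both other scalings and with either saline-titled array left out. Sema6b read 7.40 and 7.47 against 8.05 and 8.23 (difference -0.71, standard error 0.11, adjusted p = 0.00396), and its second row held the same values. Sema6a, known from granule cell migration in the cerebellum, had 0.25 (adjusted p = 0.145), Sema5a 0.14 (adjusted p = 0.37), Sema6c 0.12 (adjusted p = 0.434) and Sema5b -0.42 (adjusted p = 0.0857). Sema5b passed as lower under both scalings (adjusted p = 0.035 and 0.0263).

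Neuropilins and plexins receive the semaphorin signal. Both neuropilins were lower: Nrp1, a co-receptor of semaphorin 3A and of VEGF, read 5.95 and 6.28 on the ketamine-titled arrays, against 7.56 and 7.23 on the saline-titled arrays (difference -1.28, standard error 0.16, adjusted p = 0.00143). Nrp2, the co-receptor of semaphorin 3F, read 6.12 and 6.12 against 7.12 and 6.99 (difference -0.93, standard error 0.11, adjusted p = 0.001). Of 9 plexins, 5 were lower (55.6%), 2 higher (22.2%) and 2 did not pass (median log2 difference -0.37). These shares stand beside 9.71% lower and 23.4% higher of all tested rows.

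Plxnd1, which encodes plexin D1, read 6.48 and 6.22 on the ketamine-titled arrays, against 7.48 and 7.53 on the saline-titled arrays (difference -1.16, standard error 0.13, adjusted p = 0.000756), and its ligand gene Sema3e was lower as well. Plxnc1 read 6.94 and 6.87 against 8.01 and 7.86 (difference -1.03, standard error 0.11, adjusted p = 0.000764), whereas its ligand gene Sema7a was higher. The A-type plexins, which pair with neuropilins, were lower for Plxna2 (-0.68, adjusted p = 0.00487), Plxna1 (-0.37, adjusted p = 0.0338) and Plxna4. Plxna4 read 8.03 and 7.89 against 8.37 and 8.36 (difference -0.40, standard error 0.11, adjusted p = 0.0288). The calls on Plxna1 and Plxna4 were lost with either saline-titled array left out. Plxna3 had 0.35 and did not pass (adjusted p = 0.102).

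Of the 3 B-type plexins, 2 were higher. Plxnb2, which is needed for granule cell precursors of the mouse cerebellum, read 8.30 and 8.28 on the ketamine-titled arrays, against 7.36 and 7.19 on the saline-titled arrays (difference 1.02, standard error 0.11, adjusted p = 0.000809). The genes of its ligands Sema4c and Sema4g were higher on the same arrays, though the Sema4g call was lost with either saline-titled array left out. Of the other class 4 genes, Sema4a was lower (-0.96, adjusted p = 0.00198), and Sema4b, Sema4d and Sema4f did not pass. Plxnb3 was higher by 0.61 (adjusted p = 0.00574), and Plxnb1 had 0.16 (adjusted p = 0.31).

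**Figure D4:**
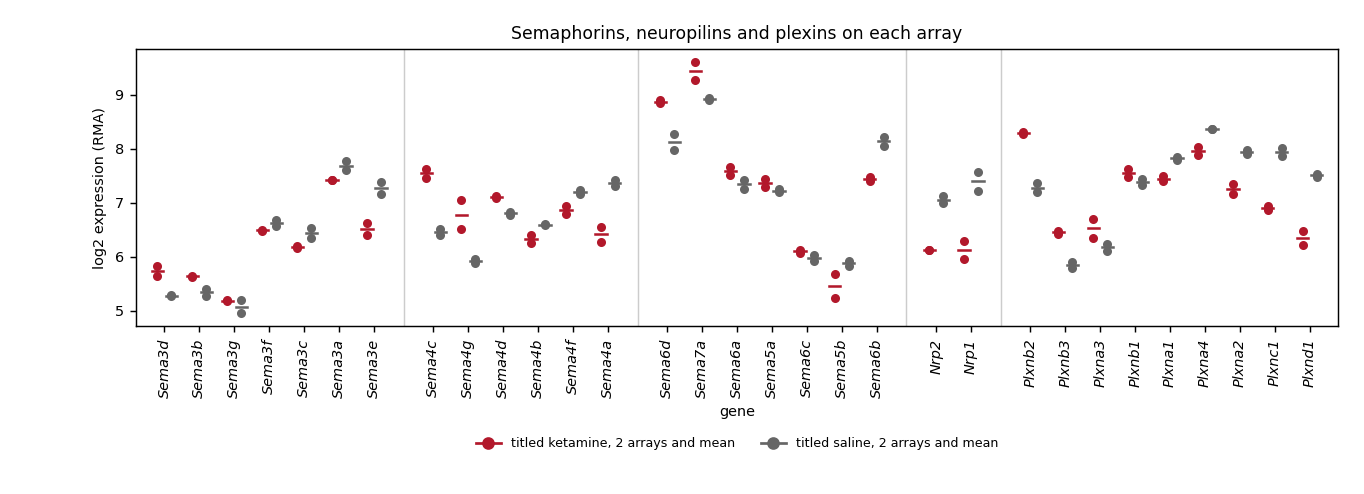
Log2 expression (y axis) of 20 semaphorin, 2 neuropilin and 9 plexin genes (x axis) on each array, red for ketamine-titled and grey for saline-titled arrays. Each dot is 1 array and each bar the mean of a group. Plxnb2 and Sema4c are higher on the ketamine-titled arrays, and Plxnd1, Plxnc1, Nrp1 and Nrp2 are lower.

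By role, 20 of 33 receptor genes were lower (60.6%) and 6 higher (18.2%), with a median log2 difference of -0.68. Of 35 ligand genes, 11 were lower (31.4%) and 8 higher (22.9%), with a median of -0.19. These shares stand beside 9.71% lower and 23.4% higher of all tested rows. The difference between receptor and ligand counts was not tested.

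Of the cytoplasmic partners that carry the signal of these receptors, 43 were measured: 10 rose (23.3%), 8 fell (18.6%) and 25 had no call (median log2 difference 0.16). The share that rose was near the 23.4% of all tested rows, the share that fell stood beside 9.71%, and 41.9% were called either way, beside 33.2%. Paralogs that act on the small GTPase Rac parted: Chn2, which encodes beta-chimaerin, was higher by 3.06 and Chn1, which encodes the alpha-chimaerin that acts below EphA4, was lower by a difference of -1.70. Tiam1, a Rac activator, was higher by 0.79, and Tiam2 was lower by a difference of -2.44. Ngef, which encodes the exchange factor ephexin of EphA receptors, had -2.03, Kalrn, an exchange factor of dendritic spines, -2.37 and Pak3, a kinase below Rac, -1.42. The Slit and Robo GTPase-activating genes Srgap2 (0.97) and Srgap1 (0.66) were higher on the arrays on which Slits and Robos were lower, and Srgap3 had 0.19 (adjusted p = 0.258). The adaptor Nck1 was higher by 1.10, and the actin-binding LIM genes Ablim1 and Ablim3 by 1.10 and 1.47. The cytoskeletal genes Rhoa (0.21, adjusted p = 0.159), Rac1 (0.20, adjusted p = 0.181) and Cfl1 (-0.15, adjusted p = 0.318) did not pass. Rock1 was higher by 0.81 (adjusted p = 0.0108), and Mical2 and Abl2 were lower, by differences of -0.62 and -0.44. Dpysl2, the collapsin response mediator of semaphorin 3A, had -0.04 (adjusted p = 0.777), and Dpysl3 was lower by a difference of -0.63.

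Guidance genes outside these families gave 7 higher (18.9%) and 9 lower (24.3%) of 37 measured (median log2 difference 0.09), beside 23.4% higher and 9.71% lower of all tested rows, and 43.2% were called either way, beside 33.2%. Of the Sonic hedgehog genes in the list, the receptor genes Boc and Ptch1 were higher by 1.66 and 1.16. Shh itself had 0.10 (adjusted p = 0.561), the transducer Smo 0.22 (adjusted p = 0.174) and the co-receptor gene Cdon 0.07 (adjusted p = 0.65), with all 4 Cdon values below the olfactory receptor level. Cxcr4, a chemokine receptor, and its ligand gene Cxcl12 were higher by 0.86 and 0.42. Flrt2, which encodes a ligand of Unc5d, had -1.81, as had the hepatocyte growth factor receptor gene Met, although 1 ketamine-titled value of Met lay below the olfactory receptor level. Ntng1, which encodes netrin-G1, and Lrrc4c, which encodes its binding partner, were both lower, by differences of -0.66 and -1.52. Dscam, a further netrin receptor, had -0.87, and Neo1, the Dcc relative that binds netrins and RGM proteins, had 0.01 (adjusted p = 0.964).

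**Figure D5:**
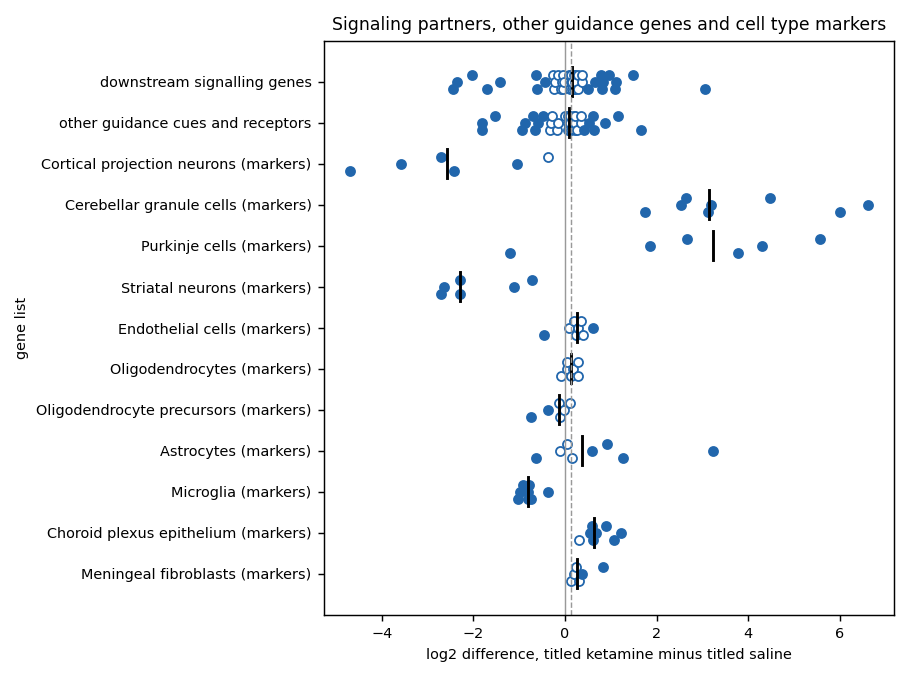
Log2 differences, ketamine-titled minus saline-titled arrays (x axis), for cytoplasmic signalling partners, other guidance genes and markers of cell types (y axis). Circles are genes, filled at an adjusted p under 0.05 (limma), the black bar is the list median, and the dashed line marks the median of all tested rows at 0.13. The granule cell markers all lie above 0 and the striatal markers all lie below it.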

How the data were processed

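The deposited values are log2 levels which, per the labels, the authors obtained by RMA over core exons with Affymetrix Expression Console (the design text names the Exon Array Computational Tool). RMA corrects background, gives the arrays 1 distribution of probe values and summarises each transcript cluster, which can hide a shift shared by most genes and shrinks differences among dim rows. For the software version and the genome build, nothing is given in the sources used here. No unused sample column was present. Of 35556 rows, 21789 carried 1 symbol of the platform annotation, 1621 several and 12146 none. All 68 genes matched RefSeq by gene number.

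Rows with 1 symbol were fitted with limma (version 3.58.1, R 4.3.3) by lmFit and eBayes, adjusted by Benjamini-Hochberg, and tested on simulated data. In that simulation, with few changed rows, 0 of 100 rows changed 1.3-fold were called, 17 of 50 at 2-fold and 43 of 50 at 4-fold. A gene that did not pass may therefore still differ. The families, lists and rules were chosen with earlier results of these data known. Array values are given for the 3 called genes with the largest difference and the gene with the highest mean in each of 13 families, for whole families of 4 or fewer, and for Epha8, named after its values were seen. Dimness was judged against the 95th percentile of 1023 olfactory receptor rows. The number of arrays limits the precision. Alternatives covered scaling, dim rows, moderation, fold calls, rows of a gene, replicate numbers and each array left out.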

Additional observations from a re-analysis of the deposited data

How the results depend on the processing

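Quantile normalization and median centring moved the median over the guidance genes to -0.43 and -0.42, against -0.28 with the deposited values. They turned the sign of uncalled genes near 0: Epha2 to -0.00164, Ephb1 to -0.13, Ntn3 to -0.026, Sema3g to -0.036 and Sema6c to -0.021 by quantile normalization, and Ephb1 to -0.12, Ntn3 to -0.031, Sema3g to -0.025 and Sema6c to -0.016 by centring. With 1 array left out, 0 to 11 genes were higher and 0 to 27 lower (limma), the zeros without either ketamine-titled array. Without saline-titled array 1 there were 11 and 27, and without array 2 there were 9 and 26. Ephb1 then ranged from -0.037 to 0.063 and Sema3g from -0.015 to 0.24. Fewer of all tested rows passed in these fits too, in both directions, so the fall in calls was not limited to guidance genes. In these fits the lone array is assumed to vary like those of the other group, and a gene that no longer passes may still differ. At 2-fold, 5 genes were higher and 14 lower, beside 805 and 649 of the 21789 tested rows. With the replicate number as a block 18 were higher (26.5%) and 32 lower (47.1%), against 27.1% and 10.8% of all rows. The genes that gained a call with the block were Efna2, Epha1, Plxna3 and Robo4 as higher and Sema5b as lower. Arrays with the same number did not deviate together (correlation 0.034 across rows), so that the numbers were not taken as pairs. Filters on dim rows, trended moderation, the 1.3-fold call and the mean of a gene's rows left both counts within 1.5 times. Adding rows with several symbols gave no value, since 0 such rows name a guidance gene of these families.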
